A study of Mus musculus with 81 samples.

Results

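The comparison is between 20 Rgs5-high and 20 Rgs5-low stromal cells, the top and the bottom class of 62 stromal cells ranked by their Rgs5 level, out of 81 single cells in all. The cells were selected on measured values: a stromal cell had Col3a1 at 10 RPKM (reads scaled to transcript length and to library size) or more, and Epcam, Chga, Tyrobp and Emcn each under 10 RPKM, and 4 shallow libraries were left out. The 22 cells of intermediate rank form a middle class. The embryos were wild-type, of the outbred CD1 strain, and were taken at embryonic day 13.5. The whole pancreas was dissected and dissociated with trypsin, cells were isolated one by one in a microfluidic chip, and cDNA was made with the SMARTer kit and sequenced as Nextera XT libraries. The labels name no treatment, reporter or sort. They also name no embryo, litter or pool, so the cells count as 1 sample and all differences are descriptions of these cells, with no test.

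Rgs5 encodes a regulator of G protein signalling, a protein that speeds GTP hydrolysis by the alpha subunits of Gi and Gq class G proteins and so shortens signals from vasoactive receptors. It is widely used as a marker of pericytes, the mural cells that sit on capillaries inside the endothelial basement membrane and that depend on PDGF-B acting on PDGFRB. The mesenchyme of the embryonic pancreas surrounds the epithelial branches, feeds them with growth factors and matrix, and holds precursors of fibroblasts and vascular mural cells.

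Rgs5 formed a gradient in the stromal cells, shallow through the upper ranks and steep through the lowest. In the Rgs5-high class its level ran from 242.6 to 669.2 RPKM with a median of 351.7 RPKM. The middle class ran from 71.9 to 236.6 RPKM with a median of 141.0 RPKM. In the Rgs5-low class the level ran from 0 to 66.7 RPKM with a median of 3.11 RPKM, and 3 cells, C52, C55 and C59, were at 0. Of the 20 low cells, 14 still had at least 1 RPKM and 7 at least 10 RPKM, so low does not mean absent. The borders are narrow: C8 at 242.6 RPKM is in the high class and C93 at 236.6 RPKM is not, while C86 at 66.7 RPKM is in the low class and C67 at 71.9 RPKM is not. Within 1.5 times of the upper border lay 19 stromal cells, and within 1.5 times of the lower border 8. These values made the classes and are given as a description.

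**Figure D1:**
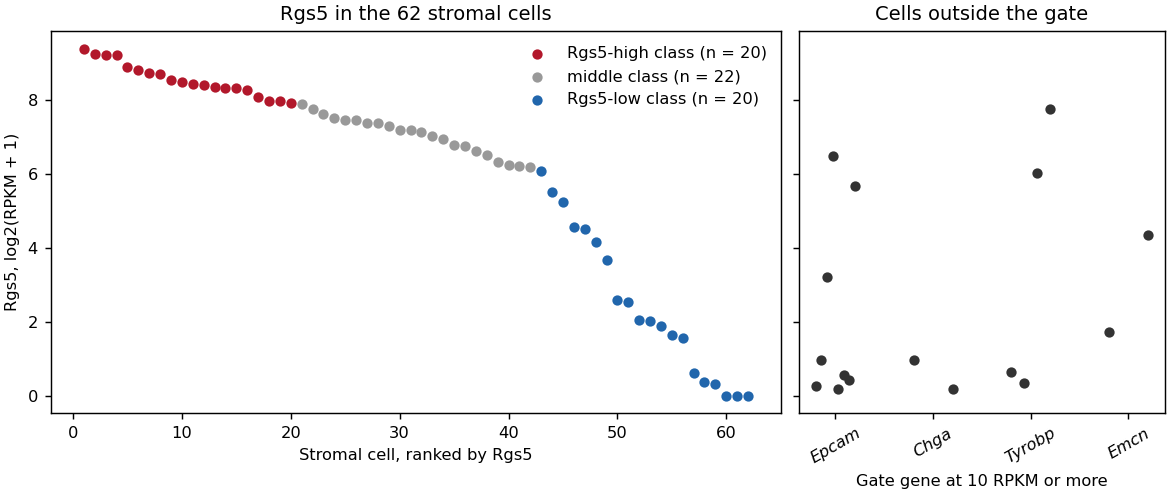
Rgs5 level, as log2(RPKM + 1), of each stromal cell in order of rank (left; red, grey and blue points are the high, middle and low classes) and of the cells with a gate gene at 10 RPKM or more (right; a cell positive for 2 gate genes is drawn under both). The stromal values fall without a break from 669.2 RPKM to the lower class, which spreads from 66.7 RPKM to 0.

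Outside the stromal gate Rgs5 was low in most cells with Epcam or Chga and mixed in those with Tyrobp or Emcn. The 8 cells with Epcam, an epithelial adhesion protein, ranged from 0.135 to 88.98 RPKM with a median of 0.719 RPKM, and 2 of them reached 10 RPKM. The 4 cells with Tyrobp, a leukocyte signalling adaptor, had a median of 32.2 RPKM. Of these, 2 reached 10 RPKM, C54 with 213.3 RPKM and C36 with 63.8 RPKM, and the lowest had 0.278 RPKM. The 2 cells with Emcn, an endothelial sialomucin, had 2.31 and 19.1 RPKM, and the 2 with Chga, an endocrine granule protein, 0.135 and 0.958 RPKM. Rgs5 reads were therefore found in cells with epithelial or leukocyte transcripts too. The amount of free RNA in the capture sites was not measured, and its part in the low-class values was not tested.

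The classes had like sequencing depth and like numbers of detected genes. Estimated reads in units of 1e6 had a median of 3.87 per cell in the high class (2.52 to 4.97), 3.57 in the middle class (1.65 to 4.81) and 3.50 in the low class (2.54 to 4.87). Genes at 1 RPKM or more had medians of 4061.5, 3899.5 and 4067.5 per cell. The labels number the cells, and those numbered to 48 made up 12 of 20 high and 9 of 20 low cells. Values within a number range, to 48 or from 49, are with the classes taken again among its stromal cells, which leaves 9 and 11 cells a class. None of the 62 stromal cells reached 1 RPKM for Xist, and all 62 had a Y-linked transcript at 1 RPKM or more, so sex does not separate the classes.

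Marker genes matched the stromal label in both classes, in part by selection. The mesenchyme, endothelial and leukocyte sums include the gate genes Col3a1, Emcn and Tyrobp. The epithelial and endocrine sums given further on include Epcam and Chga. These sums thus partly restate the gate, which did not use Vim or Col1a2. Vim, the mesenchymal intermediate filament, was at 1 RPKM or more in all 20 high and all 20 low cells, with medians of 522.6 and 514.6 RPKM. Col1a2, a chain of type I collagen, also reached 1 RPKM in every cell of both classes, with medians of 150.3 and 142.2 RPKM. The summed level of 15 mesenchyme markers had a median of 987.6 RPKM in the high class (521.7 to 2602.0) and 803.5 RPKM in the low class (363.7 to 1986.4). Endothelial markers were near 0: the sum over 14 genes reached at most 4.13 RPKM in a high cell and 20.1 RPKM in a low cell, and Cldn5, Tie1, Esam and Erg were at 0 in every cell of both classes. All 6 globin genes of the erythroid list were at 0 in both classes. Leukocyte sums reached 50.7 RPKM in a high cell (C51) and 51.2 RPKM in a low cell (C4).

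Mesothelial transcripts were unevenly spread. At 10 RPKM or more in at least 1 cell were 7 of 11 mesothelial markers in the low class and 4 of 11 in the high class, and the summed level had medians of 48.8 RPKM (0 to 377.3) and 33.7 RPKM (0 to 127.9). The highest mesothelial sum of these 2 classes was in C35, a low cell, and C77, a middle cell outside the comparison, had 416.1 RPKM. The epithelial marker sum, led by Krt18, a keratin that mesothelium shares with epithelium, reached 338.8 RPKM in C37, also a low cell, against at most 23.2 RPKM in the high class and 346.8 RPKM in C77 of the middle class. A further low cell, C41, was set beside these 2 for the same markers. It was chosen after seeing the data, and its marker sums are not given here. Wt1, a transcription factor of the mesothelium and of visceral mesenchyme, was at 1 RPKM or more in 14 cells of each class, with medians of 33.7 RPKM (high) and 27.6 RPKM (low). Its mean log2(RPKM + 1) in the high class minus that in the low class was -0.05. Among cells numbered to 48 this difference was 1.69, and among those from 49 it was -2.06. The pooled Wt1 value thus joins differences of opposite sign. List values without C35, C37 and C41 are given beside some of the gene groups below, and not beside all those that moved. Without them the Hedgehog median went from 0.12 to 0.477. The median of matrix proteases and inhibitors went from 0.11 to 0.360, and that of integrins from -0.04 to -0.376. Neural crest, glial and neuronal markers, led by Fabp7, had median sums of 0.24 RPKM in the high class and 6.72 RPKM in the low class, and endocrine markers, led by Cpe, 0.451 and 3.13 RPKM, with Sox10, Ins1 and Ins2 at 0 in both classes. Their part in the gene differences was not tested.

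The upstream windows of the genes on which the account turns are printed here, so that the neighbours Rgs5 and Rgs4, the window that the collagen IV pair shares in part and the immediate early genes can be compared by their letters. Each runs from 250 bases before the RefSeq gene start to 50 bases after it, in build GRCm38.p6, 5′ to 3′ on the gene's own strand. Capitals mark TGACG, the short form of the cyclic AMP response element, read on both strands (CGTCA on the other), and TATAAA in Rgs4. The full site TGACGTCA contains a short site on each strand, which overlap. GC boxes, GGGCGG on either strand, are left in lower case in Dusp1 and Btg2, which hold 3 each. In Col4a1 the capitals mark its GC box, read on the other strand. The windows are chr1:169655251-169655550 (plus strand) for Rgs5, chr1:169747593-169747892 (minus) for Rgs4, chr8:11312777-11313076 (minus) for Col4a1, chr17:26508423-26508722 (minus) for Dusp1 and chr1:134079106-134079405 (minus) for Btg2.
Rgs5: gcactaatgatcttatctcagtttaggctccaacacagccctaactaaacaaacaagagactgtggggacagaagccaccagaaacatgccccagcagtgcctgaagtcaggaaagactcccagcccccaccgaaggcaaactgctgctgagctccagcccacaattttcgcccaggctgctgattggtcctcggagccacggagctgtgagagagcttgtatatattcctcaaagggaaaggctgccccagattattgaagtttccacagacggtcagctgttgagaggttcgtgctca
Rgs4: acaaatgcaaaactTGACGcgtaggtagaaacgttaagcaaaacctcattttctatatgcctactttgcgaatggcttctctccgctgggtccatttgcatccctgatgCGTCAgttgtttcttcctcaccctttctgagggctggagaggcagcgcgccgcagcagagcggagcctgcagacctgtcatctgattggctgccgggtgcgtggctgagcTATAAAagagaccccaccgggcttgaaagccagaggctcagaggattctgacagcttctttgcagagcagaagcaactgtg
Col4a1: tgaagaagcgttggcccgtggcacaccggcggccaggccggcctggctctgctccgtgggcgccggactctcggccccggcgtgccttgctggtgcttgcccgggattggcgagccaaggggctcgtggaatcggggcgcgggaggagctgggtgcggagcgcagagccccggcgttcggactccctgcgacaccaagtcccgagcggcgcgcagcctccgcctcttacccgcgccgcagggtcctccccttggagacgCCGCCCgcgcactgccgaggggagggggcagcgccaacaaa
Dusp1: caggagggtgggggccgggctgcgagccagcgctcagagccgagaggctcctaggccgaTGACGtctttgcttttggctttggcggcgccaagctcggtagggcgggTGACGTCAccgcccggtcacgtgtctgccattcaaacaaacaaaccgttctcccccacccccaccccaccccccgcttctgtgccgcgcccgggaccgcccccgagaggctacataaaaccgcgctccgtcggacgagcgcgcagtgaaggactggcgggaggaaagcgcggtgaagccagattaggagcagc
Btg2: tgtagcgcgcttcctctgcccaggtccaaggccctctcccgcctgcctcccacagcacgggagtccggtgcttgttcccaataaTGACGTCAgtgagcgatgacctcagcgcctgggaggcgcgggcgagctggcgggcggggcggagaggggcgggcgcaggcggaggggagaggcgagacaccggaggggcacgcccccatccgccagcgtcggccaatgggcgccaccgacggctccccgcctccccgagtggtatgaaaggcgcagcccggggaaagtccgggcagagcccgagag

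Of 32817 RefSeq windows of 300 bases, 20.8% held TGACG on either strand, 1.79% held TGACGTCA, 35.6% held GGGCGG and 8.33% held TATAAA. The Rgs5 window held none of the 4 motifs. The Rgs4 window held 2 short sites and 1 TATAAA. Dusp1 held 3 short sites, of which 2 form its 1 full site, and Btg2 held 2 that form 1 full site. The start of Col4a2 lies 21 bases from that of Col4a1 on the opposite strand, and their windows share 78 bases. A match of letters is a description and not a measured binding site.

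Rgs4 is the nearest gene to Rgs5 in the files and belongs to the same family of G protein regulators. It lies at mm9 chromosome 1, 171671608 to 171677773, on the opposite strand, and 47951 bases separate it from Rgs5 at 171585632 to 171623657. It was detected at 1 RPKM or more in 9 of 20 high cells, 7 of 22 middle cells and 1 of 20 low cells. Its highest value was 117.1 RPKM in the high class and 29.02 RPKM, in C87, in the low class. The mean log2(RPKM + 1) was 1.82 ± 2.33 (SD, 20 cells) in the high class and 0.34 ± 1.10 in the low class, a difference of 1.49. The other 11 high cells had under 1 RPKM, so the classes overlap at the bottom. Leaving C35, C37 and C41 out did not turn the sign, nor did any of the other 15 alternatives. Those that change only which genes are compared could not turn it.

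On the other flank Nuf2, a kinetochore protein, lies 124037 bases from Rgs5 and was detected in 8 high and 4 low cells, with a difference of 1.07 that was -0.0909 among cells numbered from 49. Hsd17b7, a sterol enzyme beyond Rgs4, was found in 4 high and 2 low cells with a difference of 0.53. Lmx1a and 1700084C01Rik were not detected at 1 RPKM in any stromal cell.

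Across the table, 6910 genes were at 1 RPKM or more in at least 20% of the stromal cells and were compared. The difference is the mean log2(RPKM + 1) of the high class minus that of the low class, and a gene is called past the fold where it is at least 1 or at most -1. Of the compared genes, 932 were past the fold, 13.5% of all. They split into 548 higher in Rgs5-high cells (7.93%) and 384 lower (5.56%). With each cell centred on its own median the split was 412 higher and 522 lower and the median difference of all genes -0.07, and cells numbered from 49 gave 780 higher and 977 lower, so the excess of higher genes held neither under that scaling nor in that range. The median difference over all compared genes was 0.04, and 5% lay below -1.03 and 5% above 1.19.

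Besides Rgs5, no compared gene separated the classes. In 0 of the 6910 genes did all 20 high cells lie on one side of all 20 low cells. The median SD over cells was 2.02 on the log2 scale, and in 20 of the 932 genes past the fold (2.15%) the difference reached the pooled SD of the 2 classes. A difference of 1 to 2 between class means is thus at or below the usual SD over cells. Without replicate samples the count of 932 is a description and no measure of an effect of the Rgs5 class.

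Established pericyte genes were mixed between the classes. Of 32 mural and pericyte genes besides Rgs5, 13 were compared and 19 were too seldom detected. Rgs4 was past the fold upward, Olfml2b and Ifitm1 were past it downward, and the median difference was 0.48 against 0.04 for all genes. These 3 are 23.1% of the compared members, beside 13.5% of all genes, and the list median was 0.261 without C35, C37 and C41 and 0.0965 among cells numbered to 48. Pdgfrb, the PDGF-B receptor that recruits pericytes, ran from 0.09 to 126.1 RPKM with a median of 22.9 RPKM in the high class and from 4.42 to 228.0 RPKM with a median of 19.3 RPKM in the low class. It was thus detected in 19 of 20 high and 20 of 20 low cells, and its difference was -0.29, with 1.21 among cells numbered to 48 and -1.16 among those from 49. Cspg4, the NG2 proteoglycan of mural cells, was at 1 RPKM in 2 cells of each class, with highest values of 4.43 and 10.2 RPKM.

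Genes of the pericyte potassium channel were detected in few cells. Kcnj8, its pore subunit, was found in 7 high and 6 low cells with a difference of 0.85. Abcc9, its sulphonylurea receptor subunit, was found in 6 high and 4 low cells with a difference of 0.31. Notch3, the receptor through which arterial mural cells mature, was found in 7 high and 3 low cells, at no more than 9.51 RPKM, with a difference of 0.76. Des, the muscle intermediate filament also found in pericytes, was found in 11 high, 14 middle and 6 low cells with a difference of 0.82. Des and Kcnj8 had differences of -0.06 and -0.02 among cells numbered to 48, so these 2 do not hold their sign in both number ranges. Mcam was found in 3 high and 2 low cells, and Anpep in 1 and 0.

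Both soluble guanylate cyclase subunits, the nitric oxide receptor of contractile cells, were common in both classes. Gucy1a3 was detected in 15 high and 13 low cells with a difference of 0.48, and Gucy1b3 in 18 and 16 with a difference of 0.79. Ifitm1, an interferon-inducible membrane protein, had a median of 8.65 RPKM in the high class and 24.5 RPKM in the low class, with a difference of -1.15. Olfml2b, an olfactomedin-domain matrix protein, was found in 3 high and 7 low cells with a difference of -1.07. Ebf1, a transcription factor of mural and adipose precursors, missed the filter on low values and was at 1 RPKM in 4 high, 2 middle and 0 low cells. Higd1b, Steap4, Vtn and Tbx18 had a mean of 0.00 in the high, middle and low classes alike. Other members below the filter went both ways. Heyl was at 1 RPKM in 2 high, 2 middle and 0 low cells, Cox4i2 in 2, 0 and 0, and Ndufa4l2 in 1, 0 and 0. Aspn was at 1 RPKM in 1 high, 4 middle and 5 low cells, and Enpep in 1, 3 and 2.

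**Figure D2:**
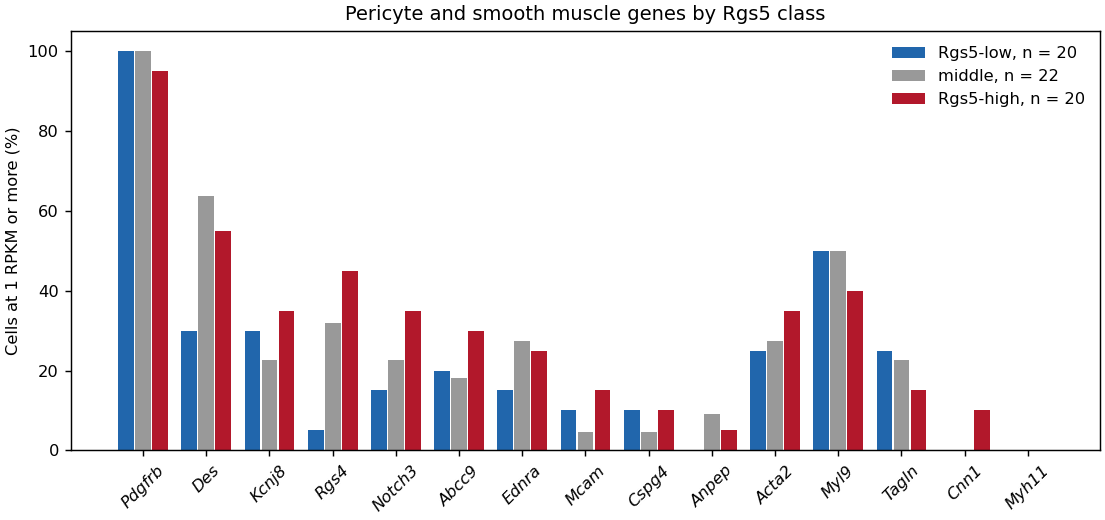
Percent of cells at 1 RPKM or more for pericyte and smooth muscle genes in the Rgs5-low (blue, n = 20), middle (grey, n = 22) and Rgs5-high (red, n = 20) classes. Pdgfrb is near the top in each class, Rgs4 is in 9 high cells and 1 low cell, and Myh11 is in none.

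Smooth muscle genes lay on both sides. Of 24 on the list 15 were compared, 2 were higher and 2 lower (26.7%, beside 13.5% of all genes), and the median difference was -0.01, with -0.59 and 0.26 in the lower and upper number range. Acta2, smooth muscle actin, was detected in 7 high, 6 middle and 5 low cells, with highest values of 129.7 RPKM (high) and 311.7 RPKM (low). Its difference was 0.04, with -1.28 and 0.95 in the lower and upper number range. Tagln, the actin-binding protein transgelin, was found in 3 high and 5 low cells with a difference of -0.04, and -1.66 and 1.27 in the ranges. Myh11, the smooth muscle myosin heavy chain, was at 1 RPKM in no stromal cell, and Cnn1, calponin, in 2 high cells at up to 2.74 RPKM.

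Acta2, Tagln, Myh11 and Cnn1 were thus not among the members past the fold. Dstn, which severs actin filaments, was higher by 1.27 and found in 18 high and 11 low cells. Cald1, which binds actin and calmodulin in many cell types, was higher by 1.04 and found in all 20 cells of each class, with medians of 65.9 and 21.2 RPKM. Myl9, a myosin regulatory light chain, was lower by 1.25, with medians of 0.14 and 4.50 RPKM. Its difference was -1.77 among cells numbered to 48 and -0.18 among those from 49. Srf, the transcription factor of actin and immediate early genes, was lower by 1.04 and found in 6 high and 11 low cells.

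Other regulators of G protein signalling were sparse. Of 20 RGS family and RGS-domain genes beside Rgs5 in the table, 5 were compared, and Rgs4 alone was past the fold. The list median of 0.38 was 0.0980 without C35, C37 and C41. Rgs2, which acts on Gq, was found in 7 cells of each class with a difference of -0.05. Rgs10 was found in 1 high and 3 low cells, Rgs3 in 1 and 2, and Rgs16 was at 0 in every cell of both classes. Rgs19 was found in 8 high and 4 low cells with a difference of 0.80.

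Receptors for vasoactive peptides and lipids had 12 compared members of 32, of which 3 were higher and 1 lower (33.3%, beside 13.5%), with a median difference of 0.49. Without C35, C37 and C41 the median was 0.148 with 2 higher and 1 lower, and among cells numbered from 49 it was 0.121 with 0 higher and 3 lower. Lpar6, a lysophosphatidic acid receptor, was at 1 RPKM in 11 high, 3 middle and 7 low cells, with medians of 14.1 and 0.12 RPKM. Its mean was 3.05 ± 2.74 against 1.26 ± 2.02, a difference of 1.79. The middle class does not lie between the others in its count of detecting cells. Ednrb, an endothelin receptor, ran from 0 to 173.5 RPKM with a median of 29.1 RPKM in the high class and from 0 to 77.7 RPKM with a median of 4.43 RPKM in the low class, a difference of 1.20.

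S1pr2, a sphingosine-1-phosphate receptor, was found in 11 high and 6 low cells with a difference of 1.12. Calcrl, the receptor partner for adrenomedullin, was found in 14 high and 16 low cells with a difference of -1.09. Its sign differed between the number ranges, with 0.89 among cells numbered to 48 and -3.35 among those from 49. Lpar1, the most abundant of these receptors, was in every cell, with medians of 89.9 and 69.7 RPKM and a difference of 0.50. Ednra was found in 5 high and 3 low cells. Of 16 compared G protein subunits, with a list median of 0.35 that was 1.08 and -0.144 in the lower and upper number range, only Gna14, a Gq class alpha subunit, was past the fold, lower by 1.07, and found in 2 high and 8 low cells. Gnaq and Gna11, its more widely expressed relatives, had differences of 0.97 and 0.99.

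Basement membrane genes had a median difference of 0.87, the highest of the 27 lists in this comparison. With the classes taken within each number range and joined it was 0.431. That is below the FGF list at 0.572, the D cyclins and CDK inhibitors at 0.493 and the matricellular and microfibril genes at 0.491. It was 0.844 and 0.409 in the lower and upper range and led in neither. The highest medians there were those of G2/M genes at 1.44 and of D cyclins and CDK inhibitors at 0.558. Of 22 listed, 12 passed the filter, and 5 of those were higher and 0 lower, 41.7% past the fold against 13.5% of all compared genes. The others were detected in too few stromal cells to be compared. Laminins, nidogens and collagen IV assemble into the sheet that underlies epithelium and encloses capillaries and their pericytes.

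Lamb1, a laminin beta chain, ran from 0 to 80.9 RPKM with a median of 17.9 RPKM in the high class and from 0 to 55.9 RPKM with a median of 2.80 RPKM in the low class. It reached 1 RPKM in 16 high, 13 middle and 11 low cells. Its mean was 3.71 ± 2.21 (SD, 20 cells) against 2.05 ± 1.99, a difference of 1.66. The ranges overlap almost wholly, and the middle class, at a mean of 1.97, was close to the low class.

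The paired collagen IV genes, whose starts lie 21 bases apart on opposite strands, both had higher means in the high class. Col4a2 was at 1 RPKM in 12 high, 9 middle and 4 low cells, with medians of 4.35 and 0.05 RPKM and a difference of 1.60. Col4a1 was at 1 RPKM in 13 high, 12 middle and 9 low cells, with medians of 3.25 and 0.89 RPKM and a difference of 1.20. The highest Col4a2 value of the low class, 60.5 RPKM, exceeded the highest of the high class, 53.5 RPKM.

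Fbln2, a fibulin that bridges basement membrane and elastic fibres, was found in 13 high, 10 middle and 5 low cells, with medians of 12.8 and 0.05 RPKM and a difference of 1.802. Nid1, which links laminin to collagen IV, was common, in all 20 high and 18 low cells, with medians of 83.7 and 37.55 RPKM. Its difference was 1.37, with 2.43 among cells numbered to 48 and 0.42 among those from 49. Nid2 and Lamc1 had differences of 0.97 and 0.78. Sparc, a collagen-binding matricellular protein, went the other way with -0.75, from medians of 149.7 RPKM in the high class and 226.0 RPKM in the low class, and Npnt had -0.37. Without C35, C37 and C41 the list kept a median of 0.86 with 5 higher and 0 lower.

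Interstitial collagens had no common direction. Without Col3a1, which the gate used, 25 were compared. Of these fibrillar collagens and processing genes 2 were higher and 1 lower, 3 of 25 beside 13.5% of all genes, with a median of 0.18. Col1a1, the main chain of type I collagen, ran from 2.88 to 78.7 RPKM with a median of 35.3 RPKM in the high class and from 1.98 to 158.1 RPKM with a median of 10.6 RPKM in the low class. Its difference was 1.06, while Col1a2, the other chain of the same protein, had 0.14. Pcolce, which enhances cleavage of procollagen, was higher by 1.10. Col12a1, a fibril-associated collagen, was found in 2 high, 6 middle and 9 low cells and was lower by 1.34.

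Genes of microfibrils and elastic fibres had members on both sides. Emilin1, an elastic fibre glycoprotein at mm9 chromosome 5, 31216159 to 31223646, ran from 0 to 66.4 RPKM with a median of 1.95 RPKM in the high class. In the low class it ran from 0 to 123.4 RPKM with a median of 20.8 RPKM. The means were 1.92 ± 1.77 and 4.20 ± 1.77 (SD, 20 cells each), a difference of -2.28, larger than the spread over cells. It reached 1 RPKM in 14 high, 14 middle and 19 low cells, and the ranges still overlap.

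Fbln5, a fibulin needed for elastic fibre assembly, was found in 5 high, 5 middle and 11 low cells and was lower by 1.68. Cyr61, a matricellular target of serum and stretch signals, had medians of 263.8 and 121.6 RPKM and a difference of 1.42, with 3.33 among cells numbered to 48 and 0.04 among those from 49. Bgn, the proteoglycan biglycan, was higher by 1.35, with 0.29 among cells numbered to 48 and 1.96 among those from 49. Thbs1, thrombospondin, was higher by 1.07. In all, 17 of 31 matricellular and microfibril genes were compared, with 4 higher, 2 lower (35.3%, beside 13.5%) and a median of 0.46.

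Matrix proteases and their inhibitors had 6 members higher and 1 lower among 22 compared (31.8%, beside 13.5%), with a median of 0.11 that was 0.549 among cells numbered to 48 and -0.233 among those from 49. Mmp16, a membrane-bound metalloproteinase, was found in 16 high and 7 low cells with medians of 15.1 and 0.11 RPKM and a difference of 1.84. Mmp14, its relative on the same kind of anchor, was found in 7 high, 15 middle and 15 low cells with medians of 0.25 and 6.87 RPKM and a difference of -1.44. Serpine2, a thrombin and urokinase inhibitor, was higher by 1.69, and Timp3, a matrix-bound metalloproteinase inhibitor, by 1.44. The opposite signs of Mmp16 and Mmp14 were seen in both ranges of cell numbers.

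**Figure D3:**
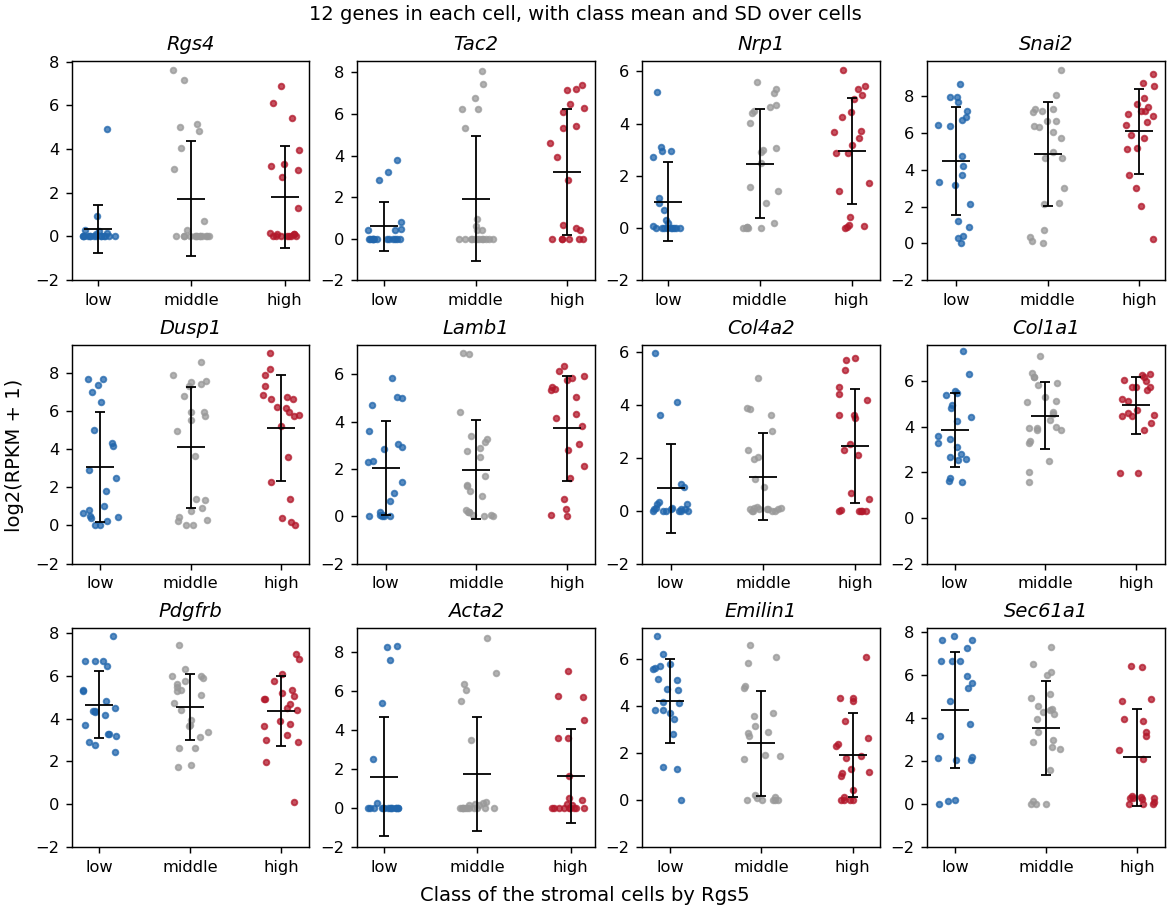
Log2(RPKM + 1) of 12 genes in every stromal cell of the Rgs5-low, middle and Rgs5-high classes; each point is a cell, the horizontal dash is the class mean and the bars its SD over cells. All genes overlap between classes; Rgs4 is under 1 RPKM in 19 of 20 low cells, and Emilin1 sits higher in the low class.

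Immediate early genes, which serum, stress or dissociation switch on within minutes, had 18 compared members of 29, with 6 higher and 0 lower (33.3%, beside 13.5% of all genes past the fold) and a median of 0.48. Dusp1, a phosphatase that turns off MAP kinases, ran from 0 to 520.7 RPKM with a median of 65.3 RPKM in the high class and from 0 to 200.5 RPKM with a median of 3.60 RPKM in the low class. The means were 5.11 ± 2.79 and 3.04 ± 2.88, a difference of 2.06, and both classes reached down to 0. Btg2, an antiproliferative gene that the list of D cyclins and their inhibitors also holds, was found in 11 high and 6 low cells with a difference of 1.85, and Nr4a1, an orphan nuclear receptor, in 14 and 5 with a difference of 1.60.

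Egr1, a zinc finger factor of the same response, was high in both classes: 113.2 to 1583.5 RPKM with a median of 743.2 RPKM in high cells and 1.91 to 1498.3 RPKM with a median of 614.4 RPKM in low cells. Its difference of 1.54 thus comes with like medians and a longer lower tail in the low class, whose SD was 3.21 against 0.98. Jun was higher by 1.53 and Egr2 by 1.07. Fos, with medians of 404.4 and 373.5 RPKM, had a difference of 0.64, and Ier2, Junb and Jund had -0.27, -0.15 and -0.05.

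The immediate early median moved with few cells. Without C35, C37 and C41 it was 0.19 with 5 members higher and 1 lower, and within cells numbered to 48 and from 49 it was 0.998 and 0.178. The time from dissociation to capture is not given per cell in the sources used here, and its part was not tested. Of the members with a RefSeq window, 4 of 5 past the fold and 4 of 10 not past it held the short site TGACG, and 2 and 0 held the full site.

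The G1/S and replication list had 27 compared members, with 6 higher, 1 lower (25.9%, beside 13.5%) and a median of 0.57, or 0.386 without C35, C37 and C41. Uhrf1, which keeps DNA methylation through replication, was found in all 20 high and 16 low cells with medians of 53.7 and 18.1 RPKM and a difference of 1.63. Slbp, the histone mRNA binding protein, was higher by 1.60, Dtl by 1.29 and Mcm4, a subunit of the replicative helicase, by 1.24, while Gins2, another helicase factor, was lower by 1.14. Ccnd1 and Ccnd3, D cyclins that act in the G1 phase, were higher by 1.68 and 1.53. Cdkn1c, a cyclin-dependent kinase inhibitor of high level in every cell, had 0.63. With Btg2 these cyclins were the 3 members past the fold of 11 compared on a list of 19 (27.3%, beside 13.5%), whose median was 0.28.

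The G2/M list of 31 genes had 2 members higher, 1 lower (9.68%, beside 13.5%) and a median of 0.02. Top2a, the mitotic topoisomerase, was at 1 RPKM in 14 cells of each class with a difference of -0.02, and Mki67, a proliferation marker, in 12 and 11. Behind this lay opposite differences: the list's median was 1.44 among cells numbered to 48, with 20 members higher, and -1.38 among those from 49, with 20 lower. The G1/S median was positive in both ranges, at 0.34 and 0.32. The pooled value of the mitotic genes thus joins differences of opposite sign.

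Nrp1, a coreceptor for semaphorins and VEGF, was found in 15 high, 14 middle and 6 low cells, with medians of 8.99 and 0.09 RPKM and a difference of 1.94 that was 1.91 and 1.98 in the lower and upper number range. Sema5a, a transmembrane semaphorin, was in all 20 high and 15 low cells, with a lowest high-class value of 6.49 RPKM, medians of 33.7 and 9.18 RPKM and a difference of 1.59. Epha4, an ephrin receptor, was higher by 1.57, and Robo2, a Slit receptor, was lower by 1.20. Of 19 compared members of the axon guidance list 4 were higher and 2 lower (31.6%, beside 13.5%), with a median of 0.38 that was -0.0915 among cells numbered from 49.

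Snai2, a zinc finger factor of migratory mesenchyme, was found in 19 high and 16 low cells, with medians of 109.6 and 22.03 RPKM and a difference of 1.58. Zeb2, another factor of that programme, had medians of 21.99 and 3.91 RPKM and a difference of 1.53. Tshz3 was higher by 1.07, but had -0.0906 among cells numbered from 49. They are the 3 members past the fold among 24 compared visceral mesenchyme factors, 12.5% beside 13.5% of all genes, and the list median was 0.35. Tcf21 and Barx1, factors of pancreatic and gastric mesenchyme, had differences of -0.06 and 0.07, and Nkx2-5 was found in 3 high and 4 low cells.

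The signalling lists hold 6 to 13 compared genes each, so their shares past the fold are coarse beside the 13.5% of all genes. In the PDGF and TGF-beta list Tgfbr3, the betaglycan coreceptor, was higher by 1.40 and Tgfbi, a secreted TGF-beta target, lower by 1.30, with medians of 36.3 and 64.96 RPKM for Tgfbi. Pdgfra, the receptor of fibroblast precursors, was found in 15 high and 13 low cells with a difference of 0.86. Gli3, a Hedgehog transcription factor, was higher by 1.49, and the other 5 compared Hedgehog genes were not past the fold. Of 8 compared FGF genes Spred1 and Fgfr2 were higher, with a list median of 0.76 that was 0.259 without C35, C37 and C41 and 0.114 among cells numbered from 49, and Fgfr2 had -0.18 among cells numbered to 48.

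Of 8 compared Notch genes 1 was past the fold, the fringe enzyme Rfng at -1.19, which had 0.71 among cells numbered from 49, and the list median was 0.39, or 0.134 without C35, C37 and C41. Of 13 compared Wnt genes 2 were lower, the coreceptor Lrp6 and the secreted enhancer Rspo3, both at -1.03, with a list median of 0.23. With the stromal cells in 2 equal classes Lrp6 had 0.0601. The 10 compared retinoic acid genes had a median of 0.03. None of 10 compared BMP and Id genes and none of 7 compared integrins was past the fold, and their medians were -0.13 and -0.04. The hypoxia list of 15 compared genes had 26.7% past the fold, beside 13.5%, and a median of -0.03, with the glycolytic enzymes Ldha and Hk2 higher by 1.29 and 1.28 and Tpi1, of the same pathway, lower by 1.35. Among 21 compared stress and chaperone genes Pdia4, Atf4 and Dnajb1 were higher, 14.3% beside 13.5% of all genes, with a list median of -0.07, and Atf4 had -0.0599 among cells numbered to 48.

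Ndn, an imprinted gene of growth control, was found in 10 high, 16 middle and 13 low cells and was lower by 1.49, the only one of 23 compared imprinted and IGF genes past the fold. Igf2, the growth factor of embryonic mesenchyme, had medians of 114.7 and 58.1 RPKM and a difference of 0.76. Of its 50-base windows 75.95% also occur in a transcript under another gene name, at the same locus or elsewhere. Its level may therefore be uncertain, which was not tested. Oxidative phosphorylation genes had the lowest list median, -0.33, with 22 of 32 members below 0 and 2 past the fold (6.25%, beside 13.5%), Uqcrc1 and Ndufb5. The sign of both differed between the number ranges. The median of the oxidative phosphorylation list was -0.0013 and -0.241 in the lower and upper number range, and -0.091 with 2 equal classes.

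**Figure D4:**
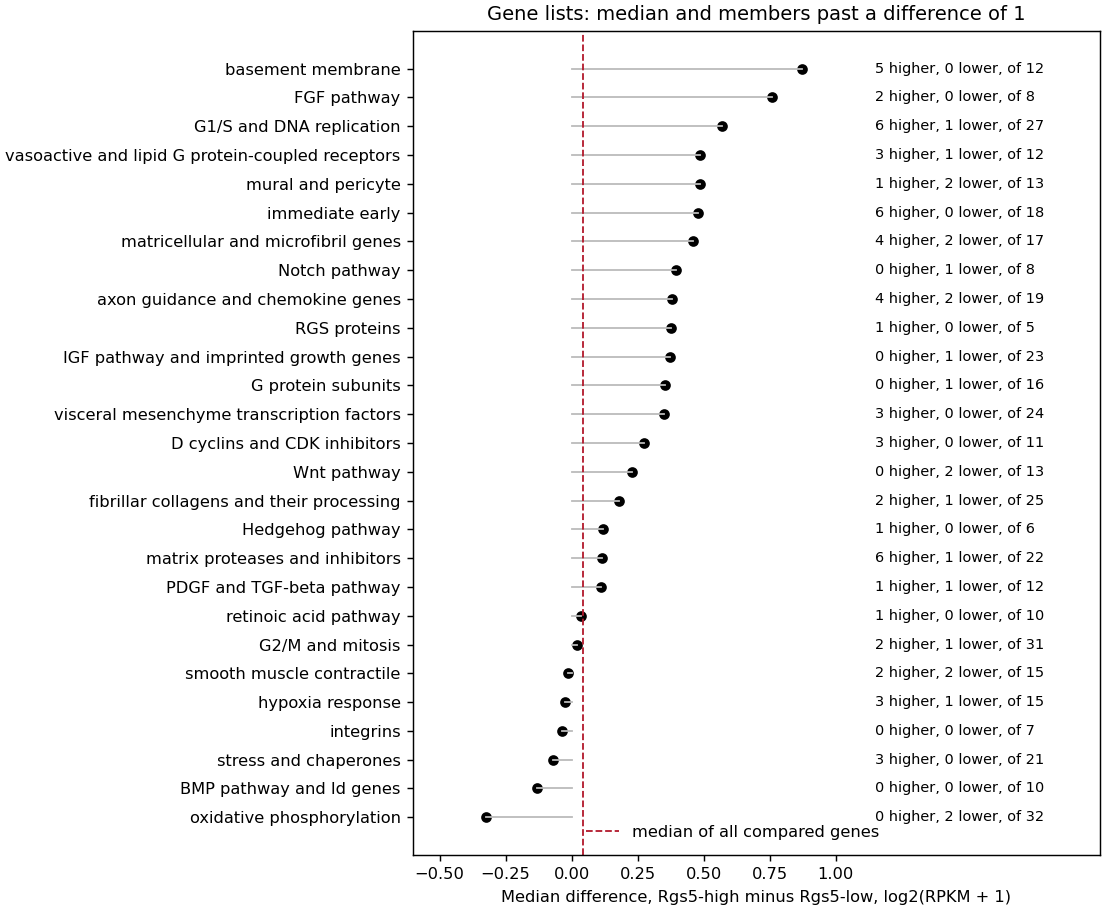
Median difference (Rgs5-high minus Rgs5-low, log2(RPKM + 1)) of the compared genes of 27 lists; points are medians, the dashed line is the median of all 6910 compared genes, and the text gives members at 1 or more and at -1 or less. Basement membrane is highest at 0.87 and oxidative phosphorylation lowest at -0.33.

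The genes of largest difference were taken, 15 in each direction, from compared genes that at least 50% of cells in the higher class detected and with the middle class mean between the others. Tac2, the precursor of the tachykinin neurokinin B, is a secreted peptide gene at mm9 chromosome 10, 127162448 to 127168824. It was at 1 RPKM in 11 of 20 high, 6 of 22 middle and 3 of 20 low cells, with a highest value of 166.3 RPKM in the high class and 12.8 RPKM in the low class. Its mean was 3.21 ± 3.02 against 0.60 ± 1.19, a difference of 2.62, and within the number ranges it was 3.26 and 2.86. High cells without Tac2 remained, 9 of 20.

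Polr2g, a subunit of RNA polymerase II, had the largest difference, 2.85, with medians of 76.5 and 0.46 RPKM and detection in 16 high and 9 low cells. Its difference was 0.867 among cells numbered to 48 and 3.94 among those from 49. Rabepk, a kelch-repeat effector of the Rab9 GTPase, followed with 2.64. Laptm4b, a lysosomal membrane protein, was found in 17 high and 9 low cells with a difference of 2.54. Eea1, the tether of early endosomes, was found in 18 high, 8 middle and 8 low cells with medians of 8.71 and 0.03 RPKM and a difference of 2.22. Yars, the tyrosyl-tRNA synthetase, was in 11 high and 2 low cells with a difference of 2.12. Crip2, a LIM protein of vascular tissue, had 2.39, but 3.34 and 0.32 in the number ranges.

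On the other side Hspb11, a subunit of the intraflagellar transport machine of cilia, was at 1 RPKM in 2 high, 5 middle and 11 low cells, with a highest value of 4.85 RPKM in the high class and 128.8 RPKM in the low class. Its difference was -2.49, and -2.31 and -2.80 in the number ranges. Usp8, an endosomal deubiquitinase, had -2.46, and Sdcbp, the syndecan-binding scaffold syntenin, -2.40 with medians of 3.82 and 77.7 RPKM. Sec61a1, the pore of the endoplasmic reticulum translocon, was found in 10 high, 18 middle and 17 low cells with a difference of -2.21. Tmem85 and Nars, an endoplasmic reticulum membrane protein and the asparaginyl-tRNA synthetase, both had -1.99.

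Many leading differences were uneven between cell numbers. Cnot2, a subunit of the main mRNA deadenylase complex, had 4.003 among cells numbered to 48 and 0.00 among those from 49, and Capn6, a calpain without protease activity, 4.26 and 0.17. Mea1, with -1.796 over all cells, had -3.45 and 0.10. Of 95 named genes past the fold, 86 had the same sign in both ranges and 43 were past the fold in both. The column headers also give each cell a position, as a letter and a number, and the position numbers do not overlap between the ranges. Whether the cell numbers or the positions mark a technical step is not given in the sources used here.

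**Figure D5:**
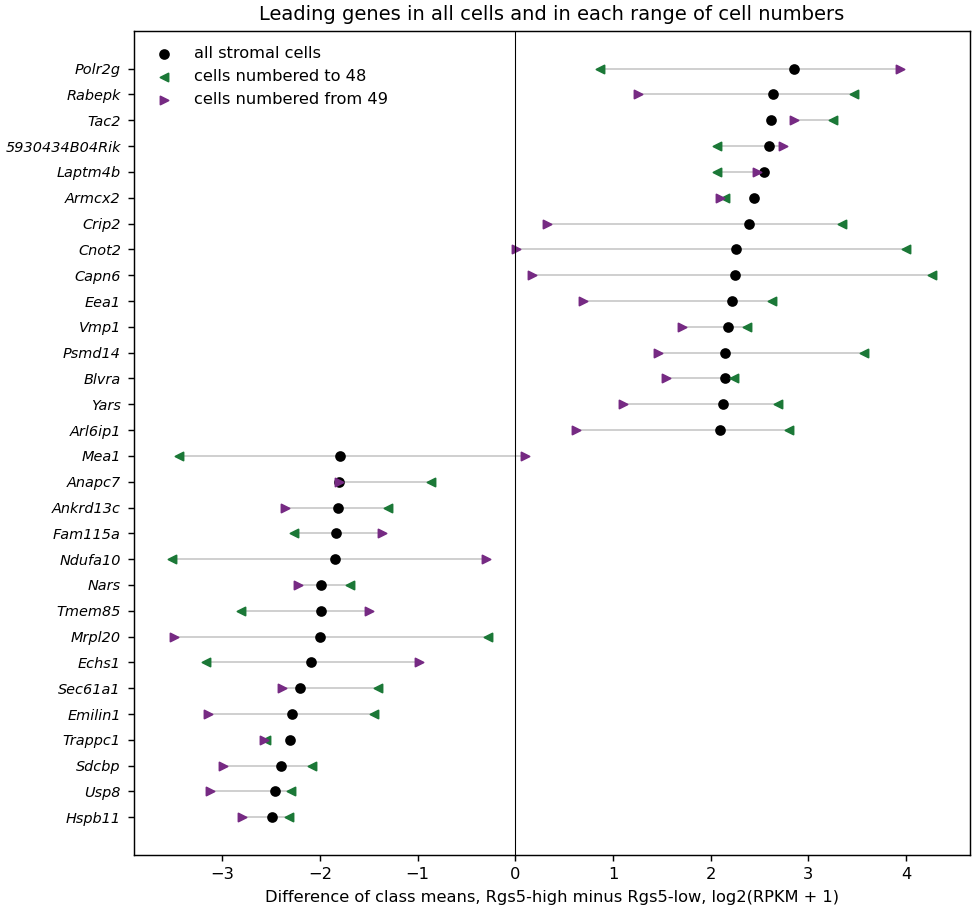
Difference of class means (log2(RPKM + 1)) of the 15 leading genes in each direction: black circles are all stromal cells, green left-pointing triangles cells numbered to 48 and purple right-pointing triangles cells numbered from 49, with classes taken again within each range. Tac2, Armcx2, Hspb11 and Trappc1 lie close together, while Cnot2 and Capn6 rest on the lower numbers and Mea1 crosses 0.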

How the data were processed

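Full-length cDNA of single cells was sequenced over 2 lanes and deposited as 1 table of 29510 transcript rows. CASAVA 1.8.2 and build mm9 are named, per the submitters' processing notes; the sources used here do not give an aligner or quantifier. The table has no unit in its header. The deposited values were read as RPKM made by the authors, because with transcript lengths from GENCODE vM21 a median of 78.2% of low values per cell came out as whole reads (tolerance 0.15), which also gave the estimated depth. Reads carry no molecular identifiers and are not independent molecules.

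Each gene was taken as its transcript row of highest mean. Differences were computed on log2(RPKM + 1) with a pseudocount of 1, which understates those of low genes, over 6910 genes at 1 RPKM or more in at least 20% of stromal cells. Cells of 1 sample are not replicates, so no test was run and SDs are over cells. No doublet caller was run on so few cells. The 4 shallow libraries were set aside by the rule. The members, the 27 gene lists and the 8 marker lists were chosen with earlier results of these data known. Named genes were the 15 largest in each direction (detected in 50% of the higher class, middle class between), up to 4 past the fold per list, and 38 fixed names. Other genes were named from the lists after their values were seen. The calculation was tested on simulated data, namely shuffled stromal values with known differences put in. That checks the calculation and not any gene named here. Python 3.11.15, pandas 2.3.3, numpy 2.4.6 and matplotlib 3.10.9 were used. Alternatives were other class sizes, pseudocounts, filters, gates, row choices, scaling, number ranges and left-out cells. Some genes are not reported here.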

Additional observations from a re-analysis of the deposited data

How the results depend on the processing

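Counts past the fold moved with most settings. With the top and bottom 25% of cells 744 genes were higher and 586 lower; with 2 equal classes 365 were higher and 143 lower; with a pseudocount of 0.1 the counts were 1253 and 954, with 10 they were 40 and 22; with detection in 50% of cells 277 and 201; with class medians 923 and 620. Cells numbered to 48 gave 1305 higher and 854 lower, and cells from 49 gave 780 and 977. The axon guidance median was 0.0557 with a pseudocount of 10 and -0.0915 in cells from 49, and the integrin median 0.66 in cells to 48. Signs turned for Lrp6 with 2 equal classes (0.0601); for Atf4 (-0.0599), Calcrl (0.89), Fgfr2 (-0.18) and Uqcrc1 (0.94) in cells to 48; and for Mea1 (0.10), Ndufb5 (0.25), Nuf2 (-0.0909), Rfng (0.71) and Tshz3 (-0.0906) in cells from 49. Smaller classes were compared within each number range; otherwise the cause was not tested.

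Of 95 named genes past the fold, 83 kept their sign in all 16 alternatives, as did the medians of 14 of 27 lists. Alternatives that change only the filter on low values leave each gene's difference and the list members as they were. They could not turn a sign. The 95 genes were past the fold in these same cells, which the alternatives use again in whole or in part. Kept signs are therefore partly built in. The basement membrane median ran from 0.35 to 1.45, and 0 of its members were past the fold with a pseudocount of 10. Of the 16, 2 were chosen after seeing the data: leaving out C35, C37 and C41 (607 higher, 416 lower) and leaving out C20, unnamed in an earlier clustering (610 and 347). C91 lies outside the gate, so leaving it out gives the values reported. No paired analysis was possible because the labels give no replicates. Depth was like in the classes, and a gene listed at 0 in a cell may be expressed there below detection.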
